A study of Mus musculus with 145 samples.

Results

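The genes described here are 35 genes of glycolysis and the pentose phosphate branch, chosen by symbol: glucose and lactate carriers (Slc2a1, Slc2a3, Slc2a6, Slc16a1, Slc16a3), enzymes of the upper pathway (Hk1, Hk2, Hk3, Gpi1, Pfkl, Pfkm, Pfkp, Aldoa, Aldoc), enzymes of the lower pathway (Tpi1, Gapdh, Pgk1, Pgam1, Eno1, Eno2, Eno3, Pkm, Ldha, Ldhb, and Bpgm of its side path), enzymes of the pentose phosphate branch (G6pdx, Pgd, Taldo1, Tkt) and switch enzymes that set the flow through the pathway or beside it (Pfkfb2, Pfkfb3, Pfkfb4, Fbp1, Pdk1, Pdk2). A gene was taken where a probe set carried its symbol alone, with the brightest probe set standing for the gene. This gave 31 of the 35 genes, among 19752 genes measured in this way. Gpi1, Eno1 and G6pdx had no such probe set, and Gapdh was listed only on 19 probe sets shared with other symbols, so these 4 were not analysed here. Pgk1, Pgam1 and Ldhb each had a further probe set that tracked the one used (r over arrays between 0.979 and 1.00 for the 3 genes), and near-identical copies of such genes cannot be told apart by these probes.

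Glycolysis splits glucose to pyruvate in the cytosol, and the pentose phosphate branch draws glucose 6-phosphate off its first steps to make NADPH and ribose. Many steps can be run by several isoenzymes that differ in how they are regulated, and resting lymphocytes are known to switch to rapid glycolysis when they are stimulated, while granulocytes use little mitochondrial respiration and feed an NADPH oxidase.

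The study is a mouse immune cell atlas, in which sorted populations were profiled on 145 Affymetrix arrays that fall into 65 groups. There were 12 groups of 1 array, 28 of 2, 23 of 3 and 2 of 4. The fits behind the 29 comparisons below held 118 arrays, some of them from groups that were not themselves compared. Nothing in the labels says whether the arrays of a group came from separate animals, so each p-value measures the spread between these arrays, which may be technical. Values are intensities on a linear scale, and changes are log2 differences ± standard error.

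The groups compared were as follows. CD8 and CD4 T cells (TCR+ CD25- CD62Lhi CD44 Lo) came from lymph nodes of male C57BL/6 mice of 6 weeks and were kept with beads carrying antibodies to CD3 and CD28 for 1, 5, 24, 48 or 96 h. Their control groups (CTR) bear the same treatment label with no time in the title, and served as the reference at every time point. CD4 effector cells of day 8 and memory cells of day 30 after LCMV (both CD44+ CD11a+ CD49d+) and naive CD44- CD4 cells came from spleens of male C57BL/6J mice of 6 weeks (1 naive array is labelled C57BL/6). OT1 CD8 effector cells of day 6 after infection with Listeria carrying ovalbumin were labelled Tbet- (CD45.1+) or Tbet+ (CD45.2+), and at day 8 KLRG1+ CD127- cells were set against KLRG1- CD127+ cells, all from B6 mice of 45 days. Thymic CD4+ CD8+ cells were CD69- or CD69+ at 6 weeks, or CD69- with embryonic day 17 in the title, and Vg4 gamma delta thymocytes of embryonic day 17 were CD24lo or CD24hi. The age label of these embryonic groups reads 5 weeks, which goes against their titles. Blood neutrophils (SSChi Ly6Ghi), eosinophils (SSChi SiglecF+) and Ly6C+ monocytes (titled 6+2-, although their marker label says MHCII+) and mast cells of skin and peritoneal cavity (CD117+ FcER1a+) came from C57BL/6 mice of 6 to 7 weeks, with 2 of the 4 peritoneal mast cell arrays labelled as blood. Peritoneal mast cell replicate 0 has the marker label Mast+. Macrophages were MertK+ CD64+ cells of lung (alveolar CD11c+ CD11b-, and CD11c- CD11b+) and liver (F4/80hi) at 6 weeks, and F4/80hi ICAM2hi peritoneal cells labelled Gata6ko or ctrl on a mixed background at 9 weeks. The labels do not say which Cre or promoter, if any, was used. Lymph node stroma at 6 weeks was lymphatic endothelium (LEC, gp38+ CD31+) and fibroblastic reticular cells (FRC, gp38+ CD140a+), compared without adjuvant. Their fit also held double-negative stroma (DN), and LEC, FRC and DN groups of day 6 after adjuvant (CFA), which share in its estimate of spread. Thymic epithelium was CEChi and MEChi at 8 weeks, which share 1 marker label, and MEChi sorted as GFP+ or GFP- from mice of 5 weeks, where the labels do not say which gene drives GFP.

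Array medians lay between 112 and 147, and arrays of 1 group correlated at 0.922 to 0.997 (median 0.992). The lowest correlations were those of the 3 eosinophil arrays (0.922 to 0.945). Olfactory receptor probe sets, which these cells should not use, had a 95th percentile of 92.2, taken here as the background level. By markers, T cell groups carried 4 of 4 measured T cell markers above it, neutrophils 6 of 6, mast cells 6 of 6, alveolar macrophages 4 of 4, liver F4/80hi cells 4 of 4, LEC 4 of 4 and FRC 5 of 5. CEChi also had 4 of 4 T cell markers above background. On blood eosinophil replicates 2, 3 and 5 the marker Epx read 89.0, 101 and 196, the first under background. Il5ra, Prg2, Ccr3 and Siglecf were above it on each of these arrays. Pf4, a platelet gene, read 144, 322 and 340 on them.

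Across the 65 groups the 31 genes varied more than most. Their median standard deviation between group means was 0.784 on the log2 scale, against 0.541 for 15557 genes with a group mean at or above the median of all values. Within groups the medians were 0.208 and 0.189. Slc2a3 (GLUT3, a glucose carrier of high affinity) was at least 49.4-fold higher in blood neutrophils than in its lowest group, a bound because that group lay under the background level. Pdk1, a kinase that shuts off pyruvate dehydrogenase, spanned at least 26.0-fold, from lone arrays at both ends (CD4 T cells at 96 h, and basophils under background). Slc2a6 spanned 24.3-fold and Slc2a1 21.0-fold, each above background in every group, and Ldhb at least 21.6-fold. Among genes with every group mean above background, Pfkfb2 spanned 3.65-fold, Pfkfb3 5.11-fold, Pfkm 5.20-fold and Pkm, which makes pyruvate, 5.31-fold. Fbp1, the gluconeogenic enzyme that opposes phosphofructokinase, stood above background in 9 groups, the neuronal-type enolase Eno2 in 21 and Hk3, a hexokinase of myeloid cells, in 30.

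**Figure D1:**
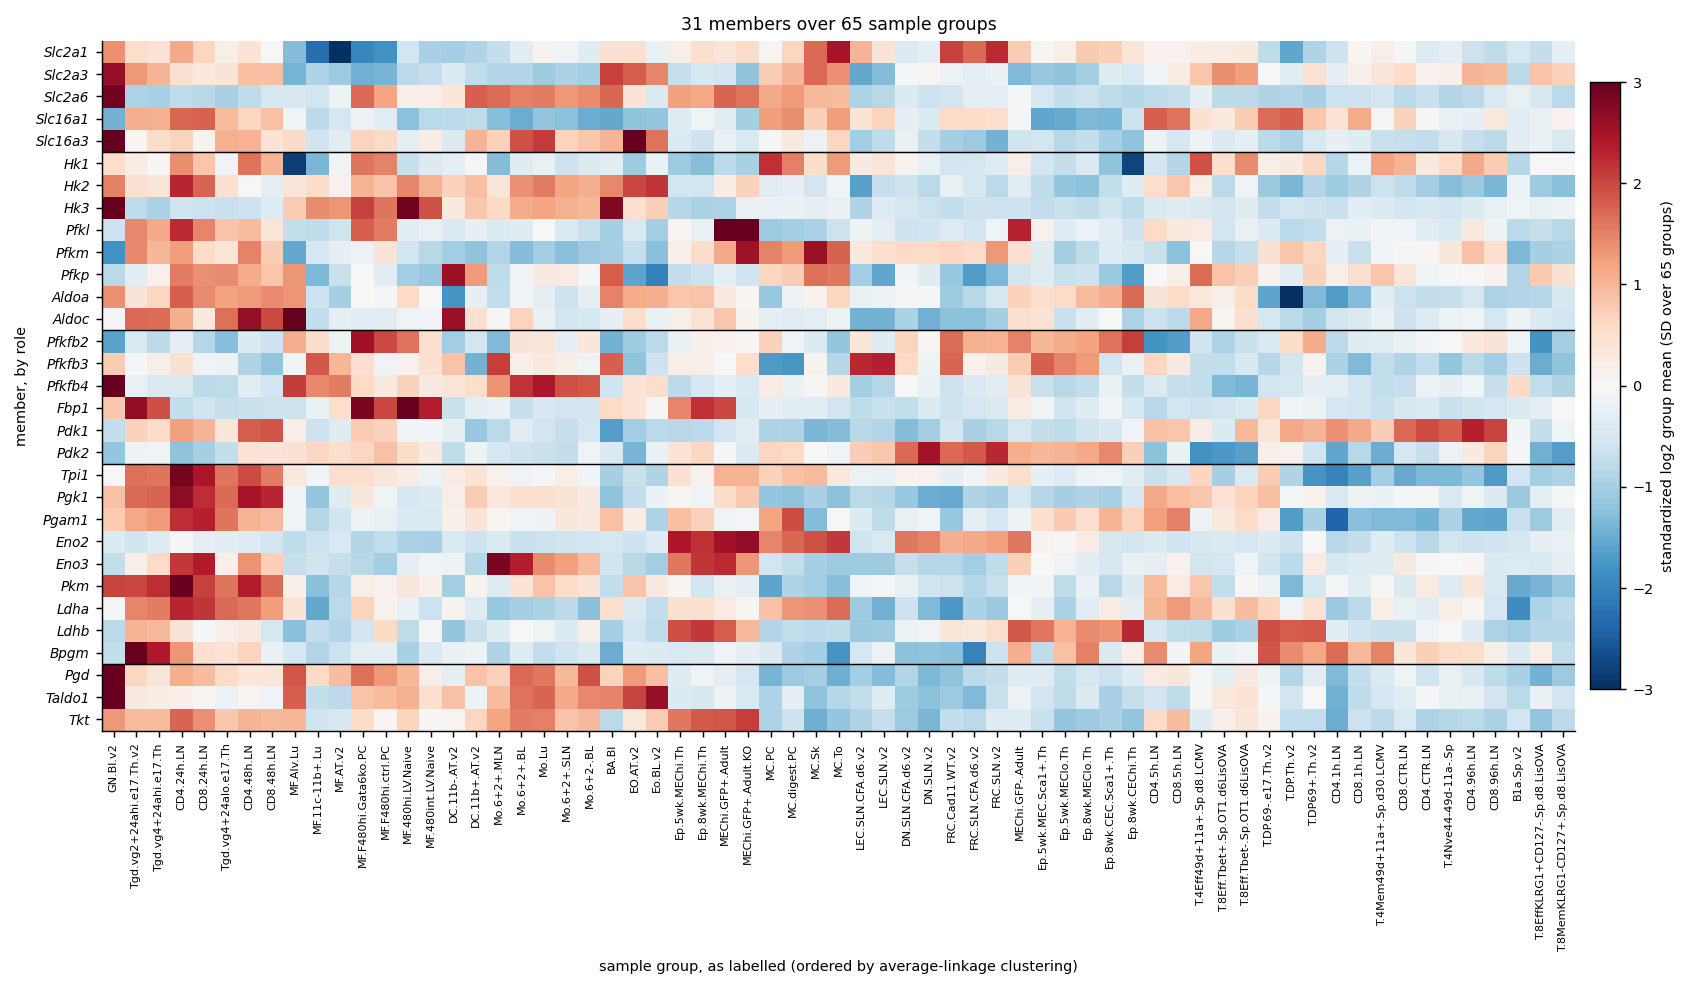
Each row is 1 of the 31 measured genes and each column 1 of the 65 groups, with colour giving the group mean of log2 intensity, standardized within the gene over groups. Columns are ordered by average linkage and rows by role in the pathway. Stimulated T cells at 24 h stand out for Tpi1, Pgk1, Pgam1, Pkm and Ldha, and blood neutrophils for Slc2a3, Slc2a6, Hk3, Pfkfb4, Pgd and Taldo1.

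The stimulated T cells form a series in time. RNA came from bulk sorted cells, so fewer cells of a type and less RNA per cell cannot be told apart here or below. In the first hour most changes were decreases. In CD8 T cells 7 of 28 genes tested passed the threshold at 1 h (14.5% of all probe sets did): 1 was higher (all probe sets, 5.02%) and 6 lower (9.48%). In CD4 T cells 14 of 28 passed (20.1% of all probe sets), 2 higher (6.38%) and 12 lower (13.8%). The 6 that fell in CD8 T cells (Aldoa, Eno3, Hk1, Pdk1, Pgd and Slc2a3) were among the 12 in CD4 T cells, and Slc16a1 rose in both. These early counts are fragile: with 1 array left out they fell to between 2 and 5 in CD8 and between 3 and 10 in CD4, lowest without control replicate 2 in CD8 and without 1 h replicate 2 in CD4.

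At 5 h the direction turned. In CD8 T cells 14 of 28 genes passed (28.9% of all probe sets), 9 higher (15.5%) and 5 lower (13.4%). In CD4 T cells 18 passed (31.2%), 13 higher (19.3%) and 5 lower (11.9%). All 9 genes higher in CD8 T cells were among the 13 in CD4 T cells: the lactate carrier gene Slc16a1, Hk2, Pfkfb3, Aldoa, Tpi1, Pgk1, Pgam1, Ldha and Tkt. In this list the Tpi1 call in CD4 T cells was lost without 5 h replicate 1 or control replicate 1 and under quantile normalization, and the Pgk1 call in CD8 T cells without control replicate 1.

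At 24 h 21 of 28 genes passed in CD8 T cells (43.3% of all probe sets), 19 higher (25.3%) and 2 lower (18%), 11 of them by 2-fold or more upward. In CD4 T cells 22 passed (53.4%), 21 higher (33.1%) and 1 lower (20.2%), 16 by 2-fold or more upward. The median log2 change of the genes tested was 0.71 in CD8 T cells and 1.16 in CD4 T cells, against -0.03 and 0.04 over all probe sets. By role, in CD8 T cells 3 of 5 carriers, 6 of 7 upper enzymes, 7 of 8 lower enzymes (Bpgm being the other), 2 of 3 pentose phosphate enzymes and 1 of 5 switches were higher. In CD4 T cells these were 4 of 5, 7 of 7, 7 of 8, 2 of 3 and 1 of 5.

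Among the carriers the 2 lactate carriers and the glucose carriers followed different courses. Slc16a1, which moves lactate and pyruvate across the membrane, read in CD8 T cells 561 and 502 in controls, 762 and 856 at 1 h, 1543 and 1157 at 5 h, 1655 and 1453 at 24 h, 715 and 574 at 48 h and 365 on the lone array at 96 h. The CD4 T cell arrays read 273 and 272 in controls, 420.1 and 381 at 1 h, 1644 and 1548 at 5 h, 1507 and 1460.5 at 24 h, 493 and 514 at 48 h and 203 on the lone array at 96 h. Both 5 h and 24 h arrays stood above all controls in each cell type, and the 96 h arrays lay under them. Against the controls Slc16a1 differed by 1.33 ± 0.15 in CD8 and 2.55 ± 0.15 in CD4 T cells at 5 h (adjusted p 5.0e-06 and 5.9e-09), and the change of 48 h against 24 h was -1.28 and -1.56. Slc16a3 (MCT4, known as a lactate exporter) changed by 0.15 in CD8 T cells at 5 h, which was not called, and by 0.45 in CD4 T cells, a call lost with any 1 of its arrays left out. At 24 h its changes were 0.61 and 1.09, and at 48 h 0.85 ± 0.16 in CD8 (adjusted p 0.0011) and 1.37 ± 0.16 in CD4 T cells (8.4e-06). Its call in CD8 T cells at 24 h rested on replicate 1 of that time, and without it the change was 0.29 (adjusted p 0.13).

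Slc2a3 and Slc2a1 (GLUT1, the glucose carrier induced in activated T cells) were also out of step. Slc2a3 read in CD8 T cells 556 and 589.8 in controls, 388 and 357 at 1 h, 414 and 401 at 5 h, 428 and 458 at 24 h, 827 and 764 at 48 h and 855 on the lone array at 96 h. Its values in CD4 T cells were 395 and 347 in controls, 259 and 222 at 1 h, 272 and 324 at 5 h, 459 and 558 at 24 h, 737 and 873 at 48 h and 906 on the lone array at 96 h. The arrays at 1 h and 5 h lay under the controls in both cell types, and those at 48 h above them. At 48 h Slc2a3 was 0.84 above its 24 h level in CD8 and 0.66 in CD4 T cells. At 24 h its change against controls was -0.37 in CD8 T cells (adjusted p 0.041) and 0.45 in CD4 T cells (0.012), with opposite signs. Neither call was firm: the first was lost with any 1 array of its groups left out, and the second without 24 h replicate 2 or control replicate 2 and under quantile normalization (0.18, adjusted p 0.26). Slc2a1 read 1521 and 1675 in CD8 T cells at 24 h, against 1024 and 1125 in controls, and 2026 and 2161 in CD4 T cells, against 1001 and 804. The treated arrays lay above the controls in both, with changes of 0.57 ± 0.13 (adjusted p 0.0021) and 1.22 ± 0.13 (1.3e-06). Slc2a6, a carrier of the same family, passed at none of the times tested.

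**Figure D2:**
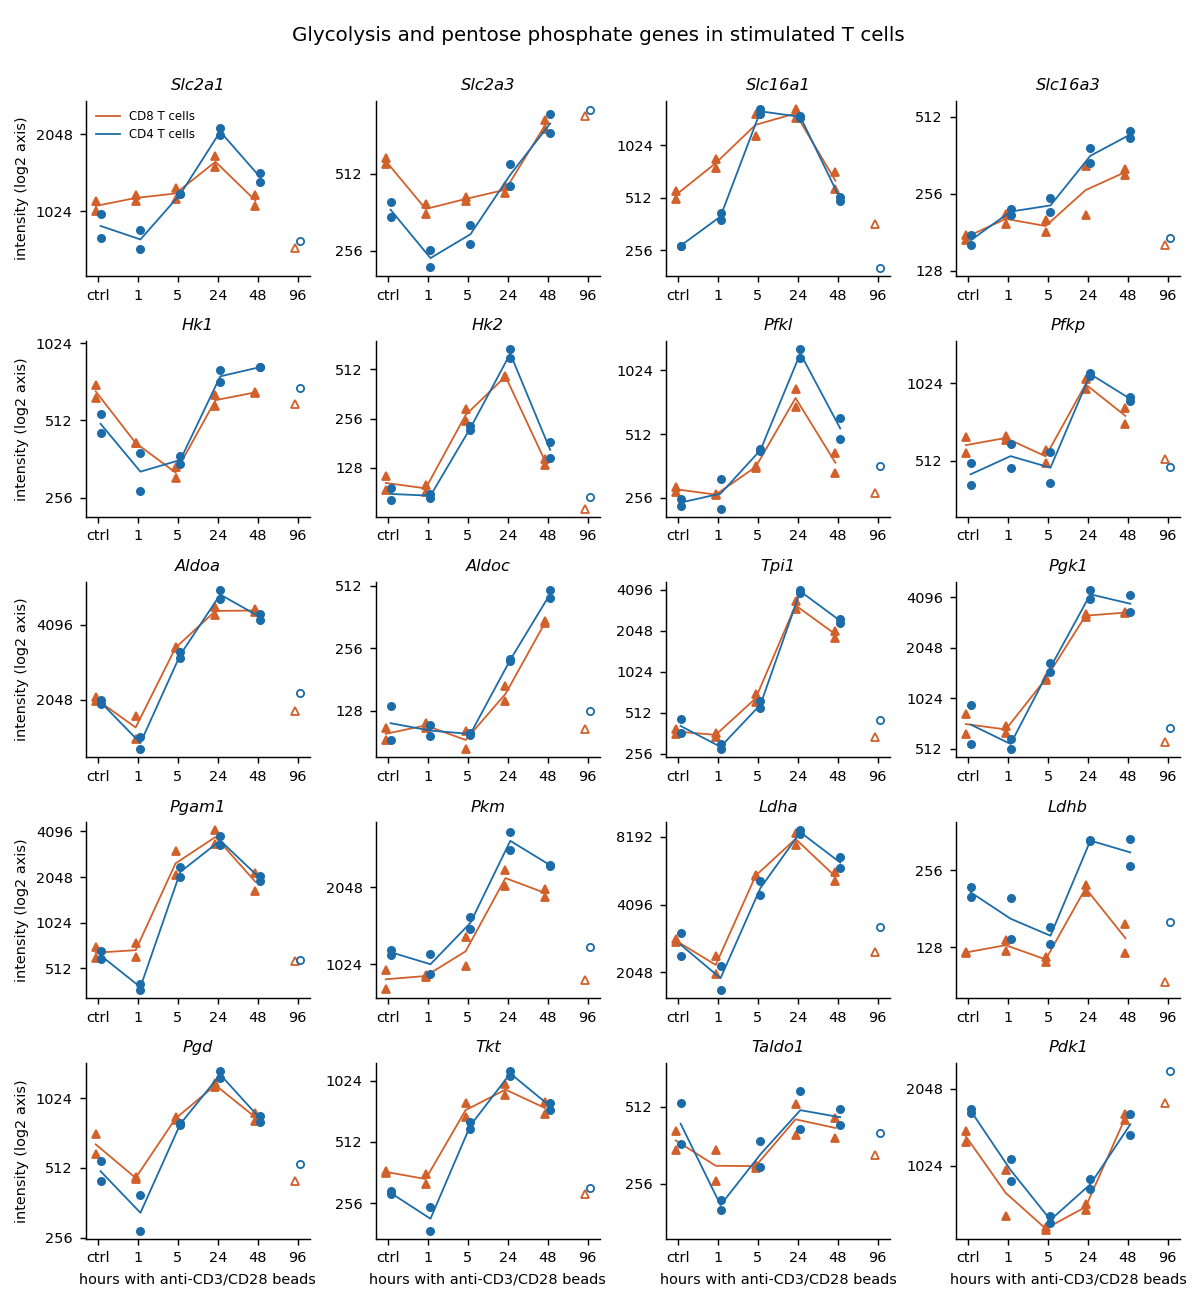
Intensity on a log2 axis of 20 of the genes against time in culture, for CD8 T cells (orange triangles) and CD4 T cells (blue circles). Points are arrays, lines join geometric means up to 48 h, and open symbols at 96 h are lone arrays. Hk2 and Tpi1 peak at 24 h, while Aldoc and Slc2a3 are higher at 48 h than at 24 h.

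The hexokinases catalyse the first step. Hk2, the inducible form that binds mitochondria, read in CD8 T cells 115 and 93.7 in controls, 91.4 and 101 at 1 h, 293 and 247 at 5 h, 461 and 464 at 24 h, 146 and 134 at 48 h and 72.2 on the lone array at 96 h. CD4 T cells had 97.2 and 81.2 in controls, 89.0 and 84.3 at 1 h, 217 and 231 at 5 h, 597 and 678 at 24 h, 148 and 184 at 48 h and 84.6 on the lone array at 96 h. It sat near the background level in controls and at 1 h, and every array at 5 h and 24 h was above every control. Its change at 24 h was 2.16 ± 0.15 in CD8 (adjusted p 1.4e-08) and 2.84 ± 0.15 in CD4 T cells (5.2e-10), and that of 48 h against 24 h was -1.73 and -1.95. Hk1, the housekeeping form, moved the other way early. In CD8 T cells it read 706 and 625 in controls, 417 and 419 at 1 h, 306 and 336 at 5 h, 644 and 585 at 24 h, 659.7 and 657 at 48 h and 595 on the lone array at 96 h. On the CD4 arrays it read 540.5 and 456 in controls, 383 and 272 at 1 h, 347 and 371 at 5 h, 721 and 802 at 24 h, 826 and 826 at 48 h and 684 on the lone array at 96 h. At 5 h Hk1 was lower, with a change of -1.05 ± 0.15 in CD8 T cells (adjusted p 5.4e-05) and of -0.47 ± 0.15 in CD4 T cells (0.023), the second lost when either 5 h array or control replicate 1 was left out. The log2 difference of Hk2 and Hk1 changed by 2.43 ± 0.16 in CD8 and 1.80 ± 0.16 in CD4 T cells at 5 h and by 2.27 ± 0.16 and 2.23 ± 0.16 at 24 h. Between 24 and 48 h this difference dropped by 1.83 in CD8 and by 2.07 in CD4 T cells. Hk3 was not tested in T cells because it stayed under the intensity filter.

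Phosphofructokinase commits sugar to glycolysis, and its liver-type subunit gene Pfkl responded most. Pfkl read in CD8 T cells 289 and 274 in controls, 264 and 267 at 1 h, 360.1 and 356 at 5 h, 834 and 686 at 24 h, 418 and 336 at 48 h and 270.3 on the lone array at 96 h. The CD4 T cell arrays read 253 and 235 in controls, 316 and 228 at 1 h, 426 and 434 at 5 h, 1170.2 and 1285 at 24 h, 485 and 610.3 at 48 h and 363 on the lone array at 96 h. All 24 h arrays exceeded all arrays of the other times in their cell type. Its change at 24 h was 1.43 ± 0.16 in CD8 (adjusted p 3.2e-06) and 2.33 ± 0.16 in CD4 T cells (1.3e-08). The platelet-type gene Pfkp changed by 0.79 ± 0.15 and 1.30 ± 0.15 at 24 h and the muscle-type gene Pfkm by 0.34 and 0.66, so the difference of Pfkm and Pfkl changed by -1.09 ± 0.16 in CD8 and -1.67 ± 0.16 in CD4 T cells. The small Pfkm call in CD8 T cells was lost without 24 h replicate 1, without either control, and under quantile normalization. Among the bifunctional PFKFB enzymes, which set the level of the activator fructose 2,6-bisphosphate, Pfkfb3 was an early gene. It read 359 and 306 at 5 h in CD8 T cells, against 207 and 209.6 in controls, and 394 and 381 in CD4 T cells, against 235 and 211. These changes of 0.67 ± 0.12 and 0.80 ± 0.12 were not seen at 48 h (-0.16 and -0.09, neither called). Pfkfb2 fell at 5 h (-0.64 ± 0.16 and -0.74 ± 0.16), and its difference from Pfkfb3 changed by -1.31 ± 0.13 and -1.54 ± 0.13. The CD8 call for Pfkfb2 was lost without 5 h replicate 2 (-0.54, adjusted p 0.067).

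Aldolase isoforms separated between 24 and 48 h. Aldoa, the muscle and housekeeping form, read in CD8 T cells 2029 and 2101 in controls, 1759 and 1429 at 1 h, 3320.4 and 3301 at 5 h, 4811 and 4496 at 24 h, 4586 and 4754 at 48 h and 1844 on the lone array at 96 h. Its values in CD4 T cells were 2035 and 1974 in controls, 1457 and 1296 at 1 h, 3014 and 3196 at 5 h, 5179.7 and 5656 at 24 h, 4515 and 4277 at 48 h and 2174 on the lone array at 96 h. Its 24 h and 48 h arrays overlapped in CD8 T cells, and both times lay above all controls in each cell type. Aldoc, known from brain, read in CD8 T cells 106 and 92.9 in controls, 112 and 106 at 1 h, 83.6 and 103 at 5 h, 168 and 142 at 24 h, 338 and 347 at 48 h and 104 on the lone array at 96 h. CD4 T cells had 135 and 92.5 in controls, 109 and 96.8 at 1 h, 101 and 97.7 at 5 h, 227 and 223 at 24 h, 489 and 445 at 48 h and 127 on the lone array at 96 h. It lay near background until 5 h, and in both cell types every 48 h array exceeded every 24 h array. Its change against controls at 48 h was 1.79 ± 0.16 in CD8 (adjusted p 4.3e-07) and 2.06 ± 0.16 in CD4 T cells (7.2e-08), and the Aldoc to Aldoa difference changed by 1.14 ± 0.16 and 1.35 ± 0.16 between 24 and 48 h.

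The lower pathway held the largest change of the set at 24 h. Tpi1, triosephosphate isomerase, read in CD8 T cells 359 and 390.3 in controls, 341 and 366 at 1 h, 611 and 701 at 5 h, 3374 and 2939 at 24 h, 2042 and 1824 at 48 h and 341 on the lone array at 96 h. On the CD4 arrays it read 365 and 463 in controls, 277 and 301 at 1 h, 626 and 553 at 5 h, 3874 and 4094 at 24 h, 2514 and 2336 at 48 h and 453 on the lone array at 96 h. The 24 h arrays were the highest of every time and did not overlap with any other. Its change at 24 h was 3.07 ± 0.14 in CD8 (adjusted p 1.4e-10) and 3.28 ± 0.14 in CD4 T cells (6.1e-11). Pgam1, phosphoglycerate mutase, was earlier: it read 2106 and 3023 at 5 h in CD8 T cells, against 597 and 709 in controls, and 2048 and 2401 in CD4 T cells, against 587 and 665. No 5 h array overlapped a control, and the changes were 1.96 ± 0.19 and 1.83 ± 0.19 at 5 h and 2.54 and 2.51 at 24 h. Pgk1, which makes the first ATP of the pathway, had changes of 2.15 ± 0.20 and 2.58 ± 0.20 at 24 h and of 2.21 and 2.40 at 48 h, and 48 h against 24 h was not called in either cell type.

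Eno3, the muscle-type enolase, read in CD8 T cells 319 and 334 in controls, 209 and 225 at 1 h, 296 and 297 at 5 h, 1301 and 1277 at 24 h, 481 and 401 at 48 h and 209.7 on the lone array at 96 h. The CD4 T cell arrays read 268 and 257 in controls, 195 and 194 at 1 h, 222 and 233 at 5 h, 1074 and 1107 at 24 h, 589.9 and 725 at 48 h and 281 on the lone array at 96 h. It showed a sharp maximum at 24 h, 1.98 ± 0.12 and 2.05 ± 0.12 above controls, and the arrays at 1 h and 5 h lay under the controls. The main enolase Eno1 was not measured, so its part is not known here. Pkm changed by 1.31 ± 0.15 and 1.44 ± 0.15 at 24 h.

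Lactate dehydrogenase is a tetramer of A and B subunits. Ldha read in CD8 T cells 2885 and 2778 in controls, 2427 and 2005 at 1 h, 5518 and 5493 at 5 h, 8504 and 7576 at 24 h, 5715 and 5205 at 48 h and 2509 on the lone array at 96 h. Its values in CD4 T cells were 3056 and 2413 in controls, 2173 and 1707 at 1 h, 5204 and 4519 at 5 h, 8762 and 8427 at 24 h, 6667 and 5949 at 48 h and 3256 on the lone array at 96 h. Its 24 h arrays were the brightest in each cell type, with changes of 1.50 ± 0.15 (adjusted p 8.2e-07) and 1.66 ± 0.15 (2.1e-07). Ldhb changed by 0.83 ± 0.17 and 0.67 ± 0.17 at 24 h, and at 5 h its difference from Ldha had changed by -1.05 ± 0.16 and -1.40 ± 0.16.

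In the pentose phosphate branch the 2 enzymes Tkt and Pgd rose and Taldo1 did not pass. Tkt, transketolase, read 990.1 and 867 at 24 h in CD8 T cells, against 359.8 and 369.6 in controls, and 1081 and 1144 in CD4 T cells, against 283 and 292. Pgd, the NADPH-forming 6-phosphogluconate dehydrogenase, read 1185 and 1147 in CD8 T cells, against 587 and 714 in controls, and 1249.6 and 1342 in CD4 T cells, against 548 and 448. Neither gene's groups overlapped, with changes of 1.35 ± 0.14 and 1.95 ± 0.14 for Tkt and 0.85 ± 0.15 and 1.39 ± 0.15 for Pgd. Taldo1, transaldolase, changed by 0.27 ± 0.21 in CD8 and 0.17 ± 0.21 in CD4 T cells at 24 h (adjusted p 0.32 and 0.5).

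Pyruvate dehydrogenase kinases divert pyruvate away from mitochondria, and Pdk1 moved opposite to most of the enzymes. It read in CD8 T cells 1272 and 1399 in controls, 652 and 987 at 1 h, 573 and 592 at 5 h, 725 and 690.1 at 24 h, 1627 and 1541 at 48 h and 1793 on the lone array at 96 h. CD4 T cells had 1713 and 1649 in controls, 1091 and 892 at 1 h, 611 and 650.0 at 5 h, 906 and 831 at 24 h, 1349 and 1636 at 48 h and 2399 on the lone array at 96 h. Every array from 1 h to 24 h lay under the controls, and at 48 h the groups came back near them. At 5 h the change of Pdk1 was -1.20 ± 0.17 in CD8 (adjusted p 4.9e-05) and -1.42 ± 0.17 in CD4 T cells (7.4e-06). Between 24 and 48 h it was 1.16 and 0.78 higher. Pdk2 was higher at 48 h than at 24 h by 1.04 ± 0.20 and 1.21 ± 0.20. Bpgm, which makes 2,3-bisphosphoglycerate, and Pfkfb4 were not called at 5, 24 or 48 h in either cell type.

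At 48 h 14 of 28 genes passed in CD8 T cells, all higher (25% of all probe sets passed, 15% higher and 9.98% lower). In CD4 T cells 21 passed, again all higher (34.5%, with 24.5% higher and 10% lower). Set against 24 h, 4 were higher and 11 lower in each cell type. That is 15 of 28 in CD8 (32.7% of all probe sets, 14.9% higher and 17.9% lower) and 15 of 28 in CD4 T cells (33.3%, 15.6% and 17.7%). The same 4 genes were higher in both (Aldoc, Pdk1, Pdk2 and Slc2a3) and 10 of the 11 lower genes were shared. On the lone 96 h arrays, which allow no test, all 19 genes called higher at 24 h in CD8 T cells were within 2-fold of the control mean, and so were 20 of 21 in CD4 T cells. The exception was Slc2a3, at 906 on the 96 h array, against 395 and 347 in CD4 controls.

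**Figure D3:**
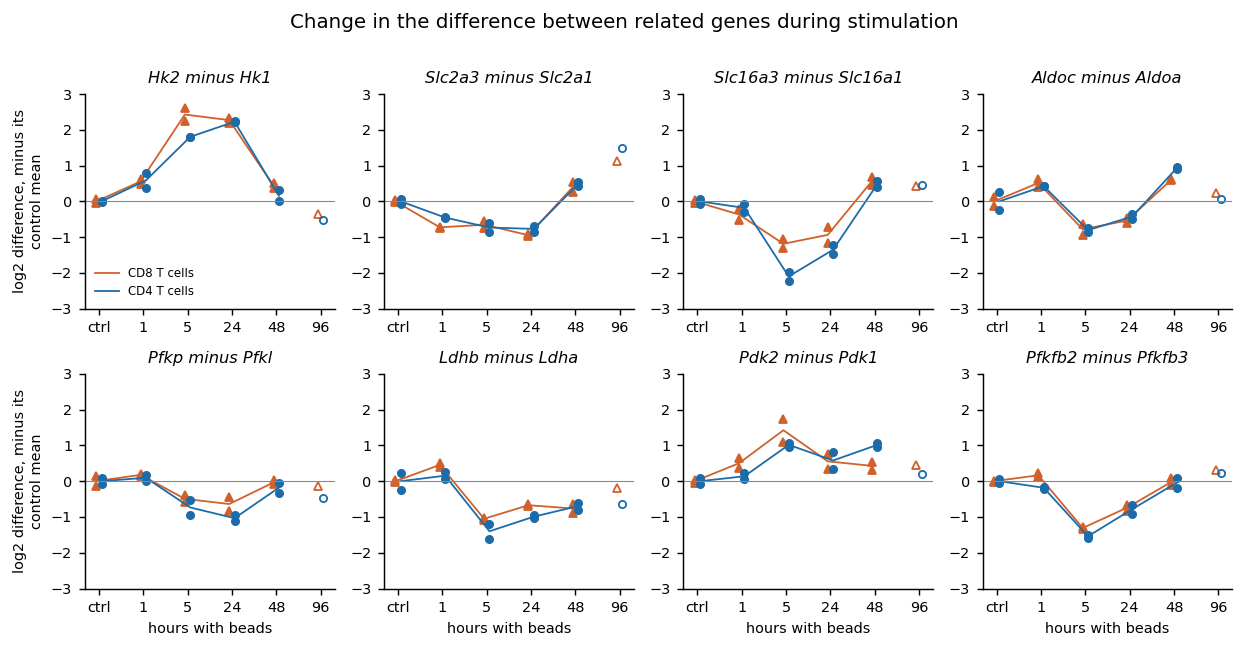
Change over time of the log2 difference between 2 isoenzyme genes, each array minus the control mean, for CD8 T cells (orange) and CD4 T cells (blue) in 8 pairs. Probe sets differ in brightness, so only the change along a line can be read. Hk2 against Hk1 peaks at 5 h and 24 h, and Aldoc against Aldoa, Slc2a3 against Slc2a1 and Slc16a3 against Slc16a1 turn upward between 24 and 48 h.

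The change at 24 h was also set directly between the cell types. Of 28 genes 0 passed in this interaction with limma (0.659% of all probe sets did), with 9 at an unadjusted p under 0.05. The smallest adjusted p belonged to Slc16a1 (CD8 minus CD4 change -0.90 ± 0.21, 0.07), followed by Slc2a3 (-0.83 ± 0.20, 0.082). With the replicate number as a block 1 passed. A p above the threshold does not show that CD8 and CD4 T cells changed alike. Within each cell type the comparisons with controls share the same 2 control arrays.

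Genes of neighbouring pathways were counted at 24 h as well, when 25.3% of all probe sets were higher in CD8 and 33.1% in CD4 T cells. All 6 genes tested of the serine branch, which leaves glycolysis at 3-phosphoglycerate, were higher in each cell type (medians 1.68 in CD8 and 1.79 in CD4), with Psat1 at 2.49 and 2.73 and Shmt1 at 2.15 and 2.69. Of 18 citrate cycle genes tested 12 were higher in CD8 and 17 in CD4 T cells, and none lower. Of 18 other sugar and pyruvate enzymes 8 were higher in CD8 T cells, and 13 higher and 1 lower in CD4 T cells. Cell cycle genes moved with these results: 15 of 15 were higher at 24 h (medians 3.68 in CD8 and 3.33 in CD4) and at 48 h (4.22 and 4.51). At 5 h, when Hk2, Pgam1 and Slc16a1 had already risen, 1 of 15 in CD8 and 2 of 15 in CD4 T cells were higher. Their part in the result was not tested. T cell markers (3 of 4 tested) were lower at 24 h in both.

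Since many of these genes rose together, their promoters were searched on both strands for ACGTG. Windows ran from 250 bases before to 50 after the gene start (RefSeq, GRCm38.p6). ACGTG is a form of the core of the element bound by hypoxia-inducible factors, and overlaps the CACGTG box bound by Myc proteins. The first-listed start of each gene was used. Of 30 promoters found, 13 (43.3%) held ACGTG, against 19.7% of 27025 promoters in the table. CACGTG was in 5 of 30 (16.7%), against 7.24% of all. GCGTG, another form of the hypoxia-inducible factor core, was in 16 of 30 (53.3%), against 32.5% of all. Either ACGTG or GCGTG was in 23 of 30 (76.7%), against 43.8%. Of the 19 genes called higher at 24 h in both cell types 10 (52.6%) held ACGTG, and of the 11 others 3 (27.3%). With any listed start counted these were 12 of 19 (63.2%) and 4 of 11 (36.4%). No share over all genes was taken for any listed start. These 2 shares therefore cannot be set against the 19.7%, which is for first-listed starts. Each of these motifs holds the letters CG, and the 27025 promoters were not matched to the 30 for base composition, whose part in the shares was not tested. A match is a description of letters and not a site. The 5 promoters shown belong to genes with large changes at 5 or 24 h and range from several matches (Ldha) to none (Tpi1). They run 5′ to 3′ on the strand of the gene, and capitals mark ACGTG or its reverse complement CACGT.
Slc16a1, chr3:104638414-104638713, plus strand: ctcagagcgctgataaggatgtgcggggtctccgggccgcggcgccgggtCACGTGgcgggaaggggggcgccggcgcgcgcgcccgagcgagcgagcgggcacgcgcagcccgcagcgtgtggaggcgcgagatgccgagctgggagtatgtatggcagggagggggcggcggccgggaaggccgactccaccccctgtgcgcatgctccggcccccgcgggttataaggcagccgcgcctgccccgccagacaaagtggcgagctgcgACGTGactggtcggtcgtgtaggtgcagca
Hk2, chr6:82774405-82774704, minus strand: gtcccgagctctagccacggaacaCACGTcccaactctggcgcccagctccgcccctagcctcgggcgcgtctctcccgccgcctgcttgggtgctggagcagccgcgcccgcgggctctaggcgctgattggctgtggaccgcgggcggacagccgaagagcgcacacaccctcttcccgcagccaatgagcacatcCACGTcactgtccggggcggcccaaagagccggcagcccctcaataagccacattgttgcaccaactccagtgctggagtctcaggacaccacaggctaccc
Pgk1, chrX:106186850-106187149, plus strand: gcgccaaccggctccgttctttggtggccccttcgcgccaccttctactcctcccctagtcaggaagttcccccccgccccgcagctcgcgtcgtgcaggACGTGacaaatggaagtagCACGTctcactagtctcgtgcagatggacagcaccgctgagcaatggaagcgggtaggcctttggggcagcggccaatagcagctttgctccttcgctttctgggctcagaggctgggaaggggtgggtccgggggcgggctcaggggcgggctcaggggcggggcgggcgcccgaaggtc
Ldha, chr7:46845554-46845853, plus strand: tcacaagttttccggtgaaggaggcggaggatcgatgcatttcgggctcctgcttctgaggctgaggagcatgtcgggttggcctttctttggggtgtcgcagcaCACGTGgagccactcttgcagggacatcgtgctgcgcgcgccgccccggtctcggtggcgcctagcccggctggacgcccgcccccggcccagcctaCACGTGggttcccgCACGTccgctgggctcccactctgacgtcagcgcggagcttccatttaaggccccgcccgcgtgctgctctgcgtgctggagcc
Tpi1, chr6:124814109-124814408, minus strand: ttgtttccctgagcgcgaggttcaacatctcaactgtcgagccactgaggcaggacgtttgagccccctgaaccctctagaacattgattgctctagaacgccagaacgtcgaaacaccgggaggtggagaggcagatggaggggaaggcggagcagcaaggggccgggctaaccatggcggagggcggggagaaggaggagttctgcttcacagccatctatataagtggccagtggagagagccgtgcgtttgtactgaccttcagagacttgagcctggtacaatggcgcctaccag
The Hk2 and Pgk1 windows hold ACGTG 2 times each, that of Slc16a1 3 times and that of Ldha 5 times, counting both strands of a CACGTG box, of which Slc16a1 has 1 and Ldha 2. Tpi1, with the largest change of the set at 24 h, holds it 0 times, and no match says only that these letters are not in this window.

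Effector CD4 T cells taken from infected mice carried part of this pattern. Against naive cells, day 8 effector cells had 19 of 28 genes called (32.2% of all probe sets), 14 higher (18.7%) and 5 lower (13.5%). Pdk1 read 322 and 362 in effector cells, against 1402 and 1498 in naive cells. Tpi1 read 1055 and 1346 in effector cells, against 425 and 399, and Hk2 184 and 179.9, against 81.0 and 71.8. No groups overlapped for these genes, and the changes were -2.09 ± 0.13 for Pdk1 (adjusted p 4.1e-06), 1.53 ± 0.14 for Tpi1 (6.7e-05) and 1.25 ± 0.12 for Hk2 (8.5e-05). Hk2 was under background in naive cells, and its change was 0.98 after adding 32. Pfkp (1.35 ± 0.15) and Pgk1 (1.21 ± 0.19) were also higher, and Pdk2 (-1.21 ± 0.15) and Ldhb (-1.02 ± 0.15) lower. Here Pfkp gained on Pfkl (0.74 ± 0.15, adjusted p 0.0053), whereas in culture at 24 h the same difference changed by -0.64 in CD8 and -1.03 in CD4 T cells. The count was 12 without effector replicate 2, and 14 of 15 cell cycle genes were higher in effector cells (median 2.68), whose part was not tested.

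Memory cells of day 30 lay between effector and naive cells for Tpi1 and Pdk1. Against effector cells 9 of 28 genes passed (8.60% of all probe sets), 1 higher (2.45%) and 8 lower (6.15%). Tpi1 read 480.4 and 503 in memory cells, against 1055 and 1346 in effector cells, a change of -1.28 ± 0.14. Leaving out single arrays reduced the count to between 2 and 5, lowest without memory replicate 2. Against naive cells 6 passed (14.5%), 2 higher (8.03%) and 4 lower (6.44%), and 3 without memory replicate 1 or 2, all of them lower. Pdk1 was the most changed, at 563 and 533 in memory cells, against 1402 and 1498 in naive cells (-1.40 ± 0.13). These 3 comparisons share their arrays in pairs.

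In OT1 CD8 effector cells the gene for T-bet, Tbx21, read 286, 283 and 308 on the Tbet- arrays, against 3313, 2889 and 3326 on the Tbet+ arrays. Tbet- cells had 5 of 25 genes called (9.68% of all probe sets), 5 higher (5.73%) and 0 lower (3.96%). Pdk1 read 625, 756 and 666 in Tbet- cells, against 202, 161 and 218 in Tbet+ cells, with no overlap and a change of 1.82 ± 0.14 (adjusted p 2.5e-05). Slc16a1 read 498, 616 and 575 in Tbet- cells, against 375, 348 and 325 in Tbet+ cells (0.69 ± 0.12). Hk2 was 0.56 ± 0.12 higher, a call lost without Tbet- replicate 2 (0.52, adjusted p 0.094) or replicate 3 (0.52, 0.092). The count was 3 with the replicate number as a block, 3 under quantile normalization, 2 without Tbet- replicate 2 or 3 and 9 without Tbet+ replicate 2. Cell cycle genes were lower in Tbet- cells (9 of 15, median -0.77), and their part was not tested. Between KLRG1+ CD127- and KLRG1- CD127+ cells 0 of 24 genes passed with limma (0.382% of all probe sets, 0.153% higher and 0.229% lower), with 1 at an unadjusted p under 0.05 and 0 in every fit with 1 array left out. In 1 fit of all 145 arrays 1 passed. On simulated data the fit of KLRG1+ CD127- and KLRG1- CD127+ cells recovered 2% of log2 changes of 1 and 50% of those of 2. The lack of calls therefore does not show that these cells are alike.

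Thymocytes at the CD4+ CD8+ stage differed with age and with CD69, a sign of recent receptor signalling. Cells titled embryonic day 17 had 15 of 26 genes called against adult cells (32.9% of all probe sets), 13 higher (22.3%) and 2 lower (10.6%). Pgam1 read 1472, 1364 and 1304 in embryonic cells, against 622, 499.7 and 536 in adult cells (1.32 ± 0.11). Tpi1 differed by 1.29 ± 0.09, Aldoa by 1.17 ± 0.10 and Pdk1 by -1.05 ± 0.10, and none of these groups overlapped. Cell cycle genes were higher as well (13 of 15, median 0.59), and their part was not tested.

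CD69+ cells had 15 of 26 genes called against CD69- cells of the same age (37.6% of all probe sets), 12 higher (17.8%) and 3 lower (19.8%). Slc16a1, as high in adult CD69- cells as in CD4 T cells at 5 h, read 689, 551 and 562 in CD69+ cells, against 1637, 1503 and 1652 in CD69- cells. Aldoa read 1391, 1754 and 1584 in CD69+ cells, against 678, 613 and 608, and Slc2a3 497, 461 and 534, against 237, 218 and 226. The groups did not overlap, with changes of -1.42 ± 0.11 for Slc16a1, 1.31 ± 0.10 for Aldoa and 1.13 ± 0.10 for Slc2a3. Eno3 was higher (0.95 ± 0.14) and Tpi1 lower (-0.68 ± 0.09), so the measured genes of the lower pathway did not all move the same way. Here 15 of 15 cell cycle genes were lower in CD69+ cells (median -2.63), and their part was not tested. Both comparisons use the same 3 adult CD69- arrays.

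Among Vg4 gamma delta thymocytes, CD24lo cells (the more mature) had 9 of 29 genes called against CD24hi cells (21.8% of all probe sets), 3 higher (8.54%) and 6 lower (13.3%). Ldhb read 275 and 279 in CD24lo cells, against 645, 496 and 613 in CD24hi cells (-1.07 ± 0.11). Pfkp read 1037 and 1048 in CD24lo cells, against 495, 554 and 519.8 (1.00 ± 0.10), and gained 1.24 ± 0.12 on Pfkl. Slc2a3 was -0.92 ± 0.08 and Bpgm -1.05 ± 0.17 in the same contrast. Fbp1 read 25.3 and 27.5 in CD24lo cells, below background, against 206, 135 and 111 in CD24hi cells, so that the size of its change depends on the offset (-2.46, or -1.61 after adding 32). Without CD24lo replicate 2 the count was 5.

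Blood neutrophils stood out for a glucose carrier and for isoenzymes of the first steps. Against Ly6C+ monocytes, neutrophils had 16 of 29 genes called (41.5% of all probe sets), 11 higher (15%) and 5 lower (26.5%), with 4 of 5 carriers higher. Slc2a3 read 5024, 4065, 4402 and 4799 in neutrophils, against 114 and 122 in monocytes, a 38.6-fold difference (5.27 ± 0.35, adjusted p 2.2e-09). Hk3 read 1639.8, 1054, 1100.4 and 1266 in neutrophils, against 248 and 242 in monocytes (2.35 ± 0.19). Pfkfb4 read 2075, 1528, 1822 and 1808 in neutrophils, against 533 and 439 in monocytes (1.89 ± 0.15). For all 3 genes every neutrophil array lay above both monocyte arrays. Slc16a3 (2.12 ± 0.24), Slc2a6 (1.75 ± 0.28) and Slc2a1 (1.39 ± 0.25) were higher too, and Slc2a3 gained 3.88 ± 0.21 on Slc2a1, the largest change of an isoform difference in favour of the first gene in these comparisons.

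Of the 3 pentose phosphate enzymes Taldo1 and Pgd were called higher in neutrophils. Taldo1 read 3420.3, 2586, 2922 and 3332 in neutrophils, against 963 and 926 in monocytes (1.69 ± 0.22, adjusted p 9.1e-06). Pgd read 4562, 4631, 4388 and 5212 in neutrophils, against 2179 and 1957 in monocytes (1.18 ± 0.44, 0.041). Neither overlapped, but the Pgd call was lost with any 1 of the 6 arrays left out, with no intensity filter and with trended variances. Tkt read 945, 768, 941 and 922 in neutrophils, against 767 and 748 in monocytes, and was not called (0.23 ± 0.24, adjusted p 0.46). Eno3 (-1.59 ± 0.28) and Ldhb (-1.34 ± 0.19) were lower in neutrophils. Of 17 citrate cycle genes 11 were lower and 1 higher, with Fh1, fumarate hydratase, at -2.32, while Egln3, an oxygen-sensing hydroxylase, was 3.21 higher.

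Eosinophils had 15 of 29 genes called against neutrophils (38.2% of all probe sets), 1 higher (16.6%) and 14 lower (21.7%). Slc2a6 read 201, 175 and 246 in eosinophils, against 3779, 2895, 2766 and 3353 in neutrophils. Pfkfb4 read 203, 225 and 208 in eosinophils, and Hk3 183, 181 and 239. All eosinophil arrays lay far below all neutrophil arrays for these 3 genes, with changes of -3.95 ± 0.25, -3.09 ± 0.14 and -2.65 ± 0.17. Hk2 went the other way relative to Hk1, by 0.94 ± 0.31, and its own values were 792, 268 and 958 in eosinophils, against 511, 370.1, 371 and 382 in neutrophils, which overlapped and were not called (adjusted p 0.17). Eosinophil replicate 3 stood apart with low Hk2, Ldha, Slc2a3 and Pgd, and without it the change of Pgd was -1.32 in place of -2.01. Of the neutrophil markers, S100a9 read 156, 325 and 1507 on eosinophil replicates 2, 3 and 5, against at least 13239 in neutrophils. On replicate 2 S100a8 (78.9), Ly6g (92.0) and Cxcr2 (66.3) were under background, and Csf3r (141) and Camp (111) above it. On replicates 3 and 5 each of these was above it. The part of these markers was not tested. Under quantile normalization Tpi1 was not called (-0.31, adjusted p 0.13, in place of -0.69) and the change of Pgk1 was -0.62 in place of -1.03.

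**Figure D4:**
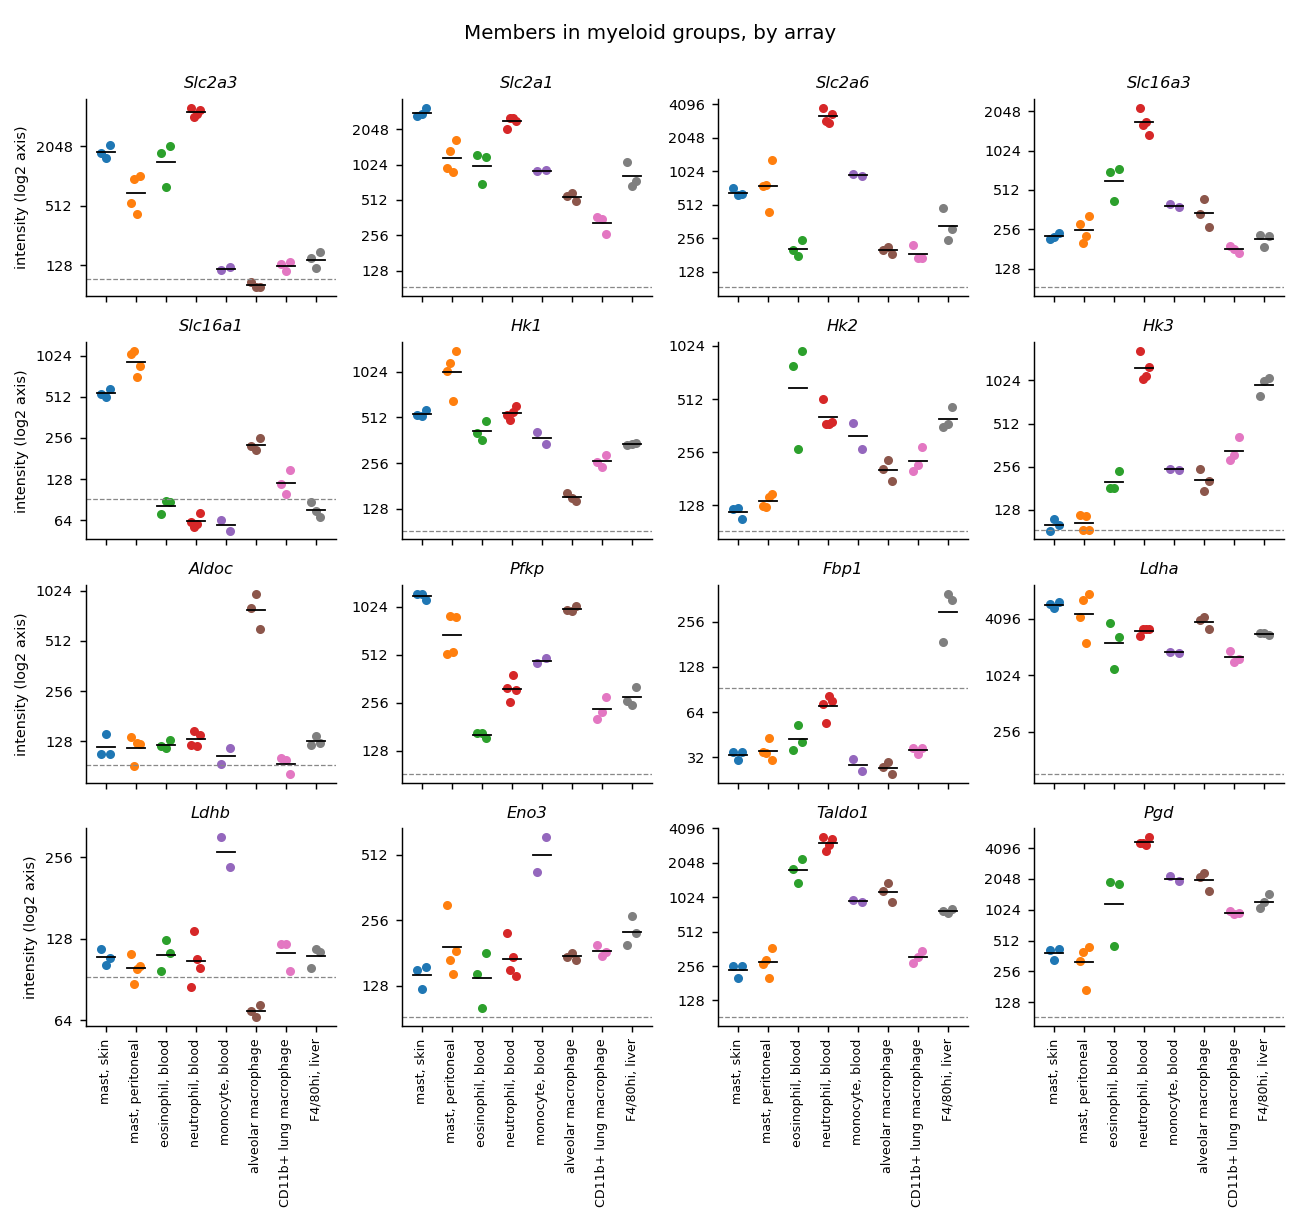
Intensity of 16 genes on a log axis in 8 myeloid groups: mast cells of skin and peritoneal cavity, eosinophils, neutrophils, monocytes, alveolar macrophages, CD11b+ lung macrophages and F4/80hi liver macrophages. Points are arrays, bars are geometric means and the dashed line is the background level of 92.2. Slc2a3, Slc2a6, Hk3, Pgd and Taldo1 are highest in neutrophils, Slc16a1 in mast cells and Aldoc in alveolar macrophages.

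Peritoneal mast cells and eosinophils differed in carriers and in several isoenzymes, with 22 of 29 genes called in mast cells against eosinophils (51% of all probe sets), 11 higher (32%) and 11 lower (19%). Slc16a1 read 1054, 1105, 717 and 856 in mast cells, against 70.7, 88.9 and 86.3 in eosinophils, where it was under background (3.49 ± 0.16, adjusted p 1.4e-11). Taldo1 read 266, 291, 202 and 367 in mast cells, against 1794, 1363 and 2215 in eosinophils (-2.67 ± 0.20). Pfkp read 516, 898, 534 and 883 in mast cells, against 165, 165 and 155 in eosinophils (2.08 ± 0.19). None of these groups overlapped. The lactate carrier difference, Slc16a3 to Slc16a1, changed by -4.74 ± 0.26 and Hk2 to Hk1 by -3.43 ± 0.31, while Pfkp gained 2.14 ± 0.21 and Pfkm 1.54 ± 0.20 on Pfkl. The Ldha call (1.04) was lost without eosinophil replicate 3 (0.58, adjusted p 0.16) or without mast cell replicate 4 or 6.

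Skin mast cells had 11 of 29 genes called against peritoneal mast cells (27.9% of all probe sets), 6 higher (11.2%) and 5 lower (16.7%). Slc2a1 read 2669, 2730.1 and 3102 in skin, against 955, 1332, 892 and 1659.6 in peritoneal mast cells (1.27 ± 0.22). Pgam1 read 660.0, 518 and 835 in skin, against 1768, 2584, 1762 and 2785 (-1.72 ± 0.22), and Pfkfb3 281, 332 and 328, against 170.4, 148, 123 and 169 (1.04 ± 0.18). The groups did not overlap in any of the 3. Of 15 cell cycle genes 11 were lower in skin (median -1.10), and their part was not tested.

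Alveolar macrophages had high Aldoc and Pfkp, the brain-type aldolase and the platelet-type phosphofructokinase gene. Against CD11c- CD11b+ lung macrophages 21 of 29 genes passed (51% of all probe sets), 15 higher (31.7%) and 6 lower (19.4%). Aldoc read 810.1, 975 and 606 in alveolar macrophages, its highest level in any of the 65 groups, against 102, 99.1 and 82.0 in CD11b+ cells (3.06 ± 0.16, adjusted p 6.5e-12). Pfkp read 982, 959 and 1043 in alveolar macrophages, against 204, 225 and 279 in CD11b+ cells (2.09 ± 0.15). Taldo1 read 1159, 1371 and 931 in alveolar macrophages, against 273, 306 and 346 in CD11b+ cells (1.89 ± 0.14). All alveolar arrays exceeded all CD11b+ arrays for these genes. Tkt (1.17 ± 0.14), Pgd (1.06 ± 0.18) and Ldha (1.25 ± 0.14) were also higher, and Pfkfb3 (-1.12 ± 0.21) and Hk1 (-0.79 ± 0.11) lower. Among other sugar and pyruvate enzymes 15 of 20 tested were higher and 0 lower, with Pdk4 at 2.38 and Gpd2, the mitochondrial glycerophosphate dehydrogenase, at 1.61, and 14 of 18 citrate cycle genes were higher.

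Against F4/80hi liver macrophages 21 of 29 genes passed (52.4% of all probe sets), 11 higher (29.3%) and 10 lower (23.2%). Aldoc (2.61 ± 0.16) and Pfkp (1.84 ± 0.15) were higher in this contrast as well, which shares the alveolar arrays with the one before. Hk3 read 248, 173 and 203 in alveolar macrophages, against 791, 1008 and 1069 in liver macrophages (-2.20 ± 0.21). Fbp1 read 27.4, 29.7 and 24.9 in alveolar macrophages, below background, against 189, 390.3 and 355 in liver macrophages (-3.45, or -2.48 after adding 32). No groups overlapped for either gene. Aldoc gained 1.94 ± 0.14 on Aldoa against CD11b+ cells and 2.19 ± 0.14 against liver macrophages, and Pfkp gained 2.07 ± 0.18 and 2.21 ± 0.18 on Pfkl.

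For the peritoneal macrophages the targeted gene goes against the label: the Gata6 probe set read 3047, 2568 and 3120 on the arrays labelled Gata6ko, against 2832, 3221 and 2553 on those labelled ctrl, and the files do not say which exons the probes cover. The arrays labelled Gata6ko had 2 of 29 genes called (8.94% of all probe sets), 1 higher (6.04%) and 1 lower (2.90%), which is no larger a share than among all probe sets. Ldhb read 133, 124.5 and 152 on arrays labelled Gata6ko, against 538, 359.6 and 357 on ctrl arrays, with no overlap (-1.59 ± 0.18, adjusted p 1.2e-05). Pgk1 was 0.46 ± 0.14 higher, a call (adjusted p 0.049) lost with no filter, under quantile normalization, with the replicate block and with any 1 array left out other than ctrl replicate 1. Cell cycle genes were higher on the arrays labelled Gata6ko (14 of 15, median 1.25), and their part was not tested.

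In lymph node stroma, LEC had 12 of 25 genes called against FRC (36.3% of all probe sets), 3 higher (16.3%) and 9 lower (20%). Pfkfb3, which in endothelium is known to drive glycolysis during vessel growth, read 791 and 729.7 in LEC, against 336 and 331 in FRC (1.19 ± 0.16, adjusted p 1.2e-04). Ldhb read 83.6 and 81.5 in LEC, below background, against 411 and 355 in FRC (-2.21 ± 0.15). Slc2a1 read 1231 and 1530.5 in LEC, against 3908 and 3697 in FRC (-1.47 ± 0.15). The groups were apart for each gene. The differences of Pfkfb2 and of Pfkfb4 from Pfkfb3 changed by -1.79 and -1.68. The count was 7 without LEC replicate 1 or FRC replicate 1.

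In thymic epithelium the share of genes called was close to that of all probe sets. CEChi had 14 of 28 genes called against MEChi (47.9% of all probe sets), 3 higher (24.9%) and 11 lower (23.1%). Of the 5 carriers 3 were lower (Slc2a6, Slc16a1 and Slc16a3), while Slc2a1 (-0.09) and Slc2a3 (0.09) were not called. Tkt read 236 and 266 in CEChi, against 1159 and 1187 in MEChi (-2.23 ± 0.15). Eno3 read 232 and 252 in CEChi, against 1051 and 1165 in MEChi (-2.19 ± 0.14), and Eno2 72.6 and 83.1, against 433 and 375 (-2.37 ± 0.14). Slc2a6 read 163 and 128 in CEChi, against 803 and 719.7 in MEChi (-2.39 ± 0.16). The groups did not overlap for any of the 4, although Eno2 was under background in CEChi. Markers of thymocytes moved with this contrast: Cd3e read 1465 and 910 in CEChi, against 200.1 and 196 in MEChi, and Rag1 339.7 and 619, against 46.0 and 56.8. Markers of T cells (3 of 3 tested) and of CD4+ CD8+ thymocytes (4 of 4) were higher in CEChi and those of neutrophils (4 of 4) lower, and their part in the result was not tested. The call count was 7 without MEChi replicate 2 and 9 without MEChi replicate 1.

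Within medullary epithelium, GFP+ MEChi had 18 of 30 genes called against GFP- MEChi (49.4% of all probe sets), 12 higher (28.9%) and 6 lower (20.5%). Slc2a6 read 1233, 1146 and 1342 in GFP+ cells, against 244, 313 and 295 in GFP- cells (2.13 ± 0.14, adjusted p 1.9e-06). Tkt read 1121, 1182 and 1269 in GFP+ cells, against 349, 416 and 376 (1.65 ± 0.10), and Eno3 1047, 1221 and 1249, against 393, 442 and 473 (1.43 ± 0.13). All GFP+ arrays exceeded all GFP- arrays for these genes. Pfkl, at 2814 in GFP+ MEChi and 2827 in a group labelled GFP+ KO whose missing gene the labels do not name, differed between GFP+ and GFP- cells by 1.14 ± 0.20, Slc2a3 by 1.13 ± 0.10 and Fbp1 by 1.65 ± 0.12, with Fbp1 and Slc2a3 below background in GFP- cells, so that these sizes are not exact. Cell cycle genes (15 of 15, median 1.62) and markers of neutrophils (4 of 4) and macrophages (2 of 2) were higher in GFP+ cells too, and their part in the result was not tested.

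**Figure D5:**
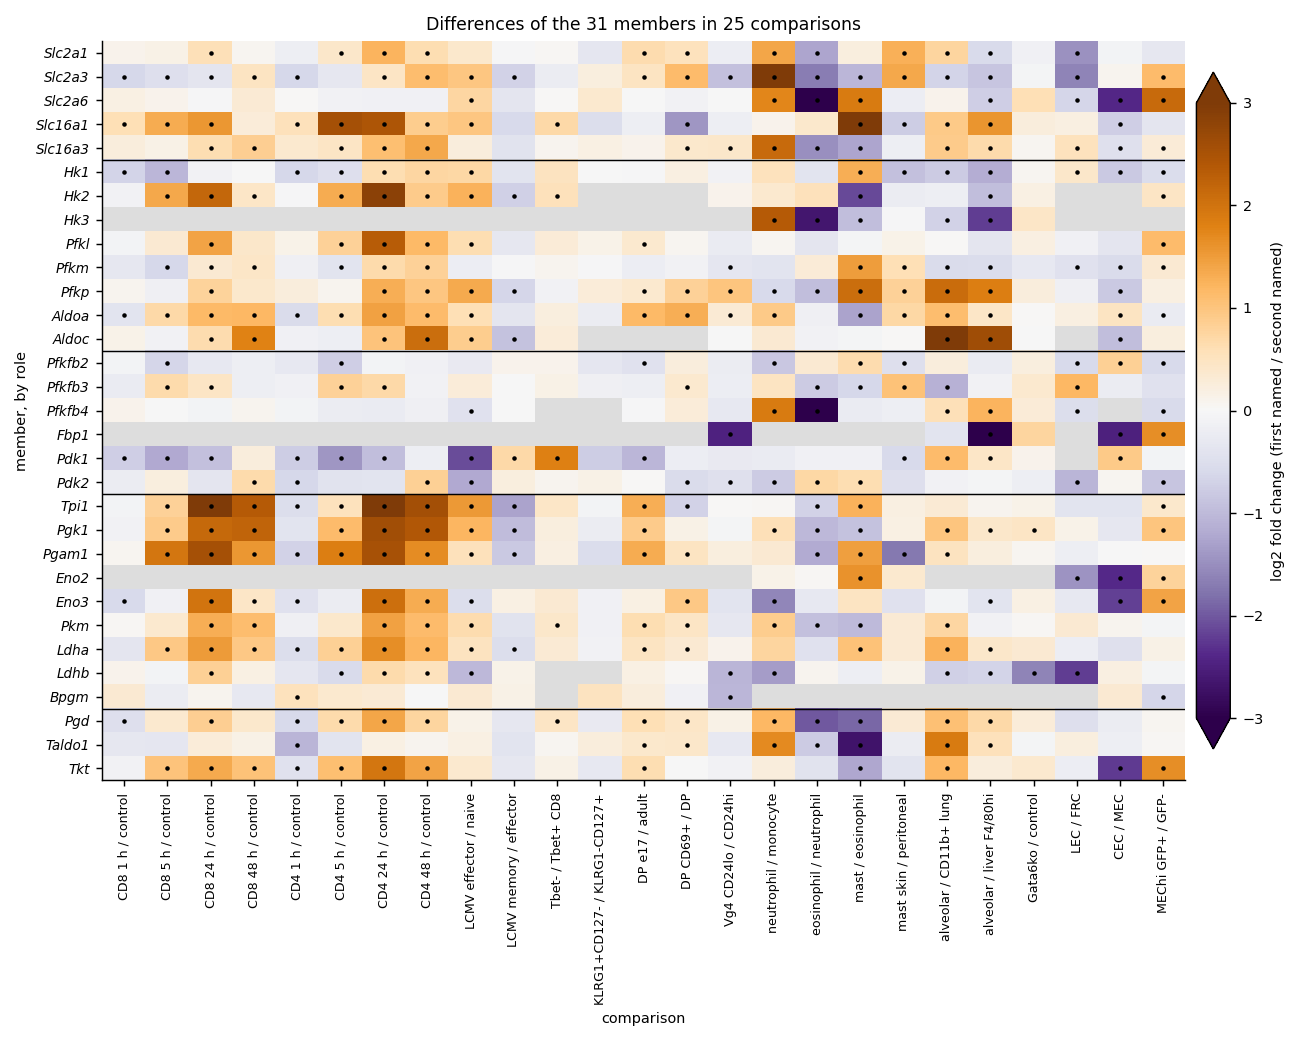
Log2 change of each of the 31 genes (rows) in 25 comparisons (columns, each the first-named group minus the other), with dots on called changes and grey where a gene was not tested. The columns of stimulated T cells at 24 h are orange (higher) for most rows, while Pdk1 is purple (lower) there and orange in Tbet- cells, and Ldhb is purple in LEC, in arrays labelled Gata6ko and in neutrophils.

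Isoform differences over all 65 groups place these contrasts in the atlas. Relative to the median group, Hk2 stood highest against Hk1 in eosinophils of adipose tissue (2.40) and blood (2.04) and lowest on the CD8 T cell array of 96 h (-1.51), where Hk2 was under background. Hk3 stood highest against Hk1 in liver F4/80hi macrophages (3.79) and neutrophils (3.51). Slc16a3 against Slc16a1 was high in neutrophils (4.98), where Slc16a1 at 62.8 was under background so that the value is not exact, and lowest in adult CD4+ CD8+ CD69- thymocytes (-3.17). Ldhb against Ldha was highest in CEChi (3.59), Pfkp against Pfkl in CD11b- dendritic cells of adipose tissue (2.38), and Aldoc against Aldoa in the same dendritic cells (2.81), followed by alveolar macrophages (1.83). The adipose tissue eosinophil group carries markers of several other cell types, so its place in this order was not read further.

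As a description over 65 group means, the closest pairs were Taldo1 and Pgd (r = 0.823), Pkm and Pgk1 (0.805), Taldo1 and Slc16a3 (0.787) and Pgd and Hk2 (0.769), and the most opposed pair was Pfkfb2 and Slc2a3 (-0.566). The mean of the standardized core enzymes Aldoa, Tpi1, Pgk1, Pgam1, Pkm and Ldha was highest in CD4 T cells at 24 h (2.47) and CD8 T cells at 24 h (2.10) and lowest in CD4 T cells at 1 h and adult CD4+ CD8+ CD69- thymocytes (both -1.28). Genes outside the set with the most similar pattern, by Pearson r over 65 group means among 15526 genes, were Nelfe (0.75) and Mcm8 (0.735) for the core. For Hk3 they were Igsf6 (0.903) and C5ar1 (0.892), and for Hk2 3110082I17Rik (0.742) and Gsr (0.708). All groups share the platform and normalization, and arrays of related cells recur among the points.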

How the data were processed

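Probe set intensity was made by the authors with Affymetrix Power Tools and RMA, per the submitters' processing notes, and deposited on a linear scale. The sources used here give no version, background step or list of the arrays that were normalized as 1 set. RNA was extracted with TRIzol and labelled with an Affymetrix whole-transcript kit, per the labels' protocols. Of 24922 probe sets 21425 had 1 gene symbol in the platform annotation, 1399 had several and 2098 were not listed, and genes were named from the first kind.

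Log2 of the deposited intensity was fitted with limma 3.58.1 in R 4.3.3 (lmFit and eBayes) as group means, in 11 fits of 5 to 22 arrays. A probe set entered the tests if at least 1 group mean was at or above the median of all values in that fit, which left 12837 to 15376. Changes with a Benjamini-Hochberg adjusted p under 0.05 over all probe sets of the fit were called. Log2 differences of 2 isoenzyme genes entered the same fit as further rows, with p-values adjusted over all its rows. Array values were not compared between probe sets. The number of arrays, 2 to 4 in most groups, limits the precision. Tables and figures used Python 3.11.15 with pandas 2.3.3 and matplotlib 3.10.9, and the fit was tested on simulated data.

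The genes, the pathway lists and the markers were chosen with earlier results of these data known. Any of the genes could be named in each comparison. From the pathway lists at most the 4 called genes with the largest absolute log2 change were named, and similar patterns were taken from the 5 other genes with the highest Pearson r. In each comparison the settings tried were no intensity filter, a filter at the 75th percentile, quantile normalization within the fit, an offset of 32 before the log, all 145 arrays in a single fit, trended and robust variances, the mean over a gene's probe sets, the replicate number as a block, and each array left out. Peritoneal mast cells were also fitted without the blood-labelled arrays (56 gene values stayed and 2 gained a call) and without the Mast+ array (57 stayed and 1 lost its call). Same-numbered arrays deviated together in every pair for GFP+ and GFP- MEChi (r between 0.20 and 0.52 over 3 pairs), and there the block changed no call count by over 1.5 times. Other comparisons had fewer than 3 pairs, or at least 1 pair with r under 0.1. The main fits took every comparison as unpaired, that of GFP+ and GFP- MEChi included, so its changes, errors and call count leave out this pairing. Groups outside the 29 comparisons enter only the ranges and isoform differences over 65 groups.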

Additional observations from a re-analysis of the deposited data

Results flagged for a closer look

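A gap test for a lone high or low array was run on 62 values, namely the genes in groups of 4 arrays, and 3 values passed it. About 1 in 20 would pass by chance. In blood neutrophils Hk2 read 511 on replicate 4, against 370.1, 371 and 382 on the others, and Ldha read 2711 on replicate 4, against 3155, 3178 and 3179. Tkt read 768 on neutrophil replicate 5, against 922, 941 and 945.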

How the results depend on the processing

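Taken gene by gene over the 31 genes, all comparisons and all settings, 9774 values kept direction and side of the threshold, 430 lost a call, 106 gained one and 0 called values turned direction. Counts of genes called stayed within 1.5 times in 335 cases and moved further in 45. With all arrays in a single fit the count was 6 at 1 h in CD4 and 2 in CD8 T cells, 3 in Tbet- cells, 1 for KLRG1+ cells, 9 for embryonic thymocytes and 5 for Vg4 cells. The replicate block gave 1 for the CD8 and CD4 difference, 3 for Tbet- cells and 1 for the arrays labelled Gata6ko. It changed no other count by over 1.5 times. Within the T cell comparisons, which share 2 numbers, same-numbered arrays correlated at -0.02 (24 h, CD4) to 0.68 (48 h against 24 h, CD4) in their deviations, and 2 pairs do not settle whether the numbers pair the samples. A 75th-percentile filter, which tests fewer genes, gave 12 for LCMV effector cells, 2 for memory against naive cells, 7 for LEC, 5 for CEChi and 11 for GFP+ MEChi. Quantile normalization gave 3 for Tbet- cells and 1 for the arrays labelled Gata6ko, and no filter gave 5 for Vg4 cells and 1 for Gata6ko. The cause of these shifts was not tested, apart from the smaller number of genes tested. Quantile normalization also shifted the median of all probe sets in CD4 T cells to -0.08 in place of 0.04 at 24 h and to -0.09 in place of 0.05 at 48 h. For CEChi the replicate numbers correlated at -0.24 and may be crossed. A crossed pairing, added after seeing the data, gave 13, against 14 with and without the block.

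With 1 array left out, counts ran from 2 to 5 (1 h) and 13 to 14 (5 h) in CD8, and from 3 to 10 (1 h) and 12 to 15 (5 h) in CD4 T cells. At 24 h they ran from 17 to 19 in CD8 and 21 to 22 in CD4, and at 48 h from 10 to 12 and 20 to 21. They ran from 0 to 1 for the CD8 and CD4 difference (1 without CD4 replicate 1 of 24 h), 12 to 21 for effector, 2 to 5 for memory against effector and 3 to 6 for memory against naive cells (3 without memory replicate 1 or 2). The ranges were 2 to 9 for Tbet- cells, 5 to 10 for Vg4 cells, 1 to 4 for the arrays labelled Gata6ko (4 without ctrl replicate 1), 7 to 9 for LEC and 7 to 11 for CEChi. Where 1 array was left in a group, it was assumed to vary like the others. Probe sets near the background level of 92.2 give compressed changes.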
